A study of Mus musculus with 7 samples.

Results

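Distal regions open in all 7 libraries of a mouse tooth chromatin survey numbered 3283. Open chromatin was measured with Omni-ATAC, a form of the ATAC assay that reads out where an added transposase can reach the DNA. From each library the 38000 peaks on chromosomes 1 to 19 with the smallest p-values were taken, peaks that shared at least 1 bp were merged, and a region was kept if every library had a peak in it and its centre lay over 10 kb from both ends of every protein-coding gene in RefSeq. The merged lists held 77136 regions, of which 46131 were distal by that distance. The rule therefore picked 7.12% of the distal regions. Over regions at any distance from genes, 19.2% had a peak in every library. Membership and peak strength come from the same values as the rule, so they are given as descriptions without a test: the members were chosen by the deposited p-values of their peaks in these same 7 libraries.

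The libraries came from 5 groups. The first group, with replicates 1 and 2, was embryonic day 11.5 ectoderm from the first pharyngeal arch, which gives rise to the tooth epithelium and was separated from the mesenchyme beneath it with Dispase II. Sox2-positive dental epithelial stem cells were sorted from the labial cervical loop of the lower incisor at postnatal day 2, in mice whose GFP reporter is driven by the endogenous Sox2 promoter, also with replicates 1 and 2. The last 3 groups were whole teeth of the same age, namely the lower incisor, the lower first molar and the upper first molar, with a single library and so no replicate check for each. The labels name no treatment and no other allele, and they do not say whether replicates came from separate animals. The 5 postnatal libraries differ from the ectoderm in age, tissue and dissection together, and these cannot be told apart.

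Each deposited list had its own length, from 38326 to 80850 peaks on these chromosomes, and the read depth behind it is unknown. Epithelial markers fitted the labels in most cases. All 7 libraries had a peak at most 1 kb from an end of Krt5 and Cdh1, and Krt14 had one in the 5 postnatal libraries but in neither ectoderm library. Sox2 itself had a gene-end peak in the 4 replicated libraries and in none of the whole teeth. Of the 5 mesenchymal genes, Msx1 had one in all 7, Col1a1 in 6 (all but ectoderm replicate 2), Twist1 in 6 (all but ectoderm replicate 1), Prrx1 in the ectoderm libraries alone and Pax9 in none. Msx1, Col1a1 and Twist1 thus had one in both libraries of sorted epithelial cells, and the part of mesenchymal cells in the results was not tested. The endothelial genes Pecam1 and Cdh5, the glial gene Sox10 and the leukocyte gene Ptprc had none in any library, while Cd68, a macrophage gene, had one in 6. Myod1, a muscle gene, had one in both ectoderm libraries and the upper molar.

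Open sites far from gene ends include enhancers, which act on promoters at a distance, insulator sites bound by CTCF, and promoters that the gene model places inside a gene or in front of a noncoding RNA. Enhancers differ widely between cell types, whereas promoters rich in CpG dinucleotides, called CpG islands, tend to be open in most cells. In developing teeth, distal enhancers of signalling genes and transcription factors guide the exchange between epithelium and mesenchyme. A long gene can also have several start sites, and an internal start far from both gene ends counts as distal here.

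The sequences of 6 start sites are shown because, of the sequence features compared, CpG content separated member starts most from starts without a peak. Each is the 250 bases upstream of a RefSeq start on GRCm38.p6, 5′ to 3′ on the strand of the gene, with every CpG in capitals. The first 5 lie under member regions with closely placed summits or high signal, and the last, from Rab11fip3, lies under no peak and was chosen because its CpG content equalled the median of such distal coding starts. Stag1 encodes a subunit of cohesin, Rbpj the DNA-binding partner of Notch, Ptprs a receptor tyrosine phosphatase, Rab11fip3 an effector of the small GTPase Rab11, and Gm17762 is a long noncoding RNA (lncRNA).
Stag1 (chr9:100643198-100643447, + strand): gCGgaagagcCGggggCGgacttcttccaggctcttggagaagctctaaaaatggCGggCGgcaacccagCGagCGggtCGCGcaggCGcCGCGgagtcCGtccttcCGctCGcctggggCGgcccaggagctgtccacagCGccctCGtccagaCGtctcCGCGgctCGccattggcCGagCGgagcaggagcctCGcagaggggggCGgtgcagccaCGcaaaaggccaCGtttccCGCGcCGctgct
Rbpj (chr5:53590096-53590345, + strand): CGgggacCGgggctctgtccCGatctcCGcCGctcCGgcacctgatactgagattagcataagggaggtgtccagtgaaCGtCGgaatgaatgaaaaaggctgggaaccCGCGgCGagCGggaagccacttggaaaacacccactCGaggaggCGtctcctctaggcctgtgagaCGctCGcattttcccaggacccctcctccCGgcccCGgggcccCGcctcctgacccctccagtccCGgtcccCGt
Ptprs (chr17:56462222-56462471, - strand): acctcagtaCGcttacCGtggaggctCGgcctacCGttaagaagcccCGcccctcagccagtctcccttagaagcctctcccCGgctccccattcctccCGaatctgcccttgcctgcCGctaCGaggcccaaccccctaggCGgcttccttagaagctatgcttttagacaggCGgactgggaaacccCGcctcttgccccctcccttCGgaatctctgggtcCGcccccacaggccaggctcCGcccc
Nhsl1 (chr10:18407425-18407674, + strand): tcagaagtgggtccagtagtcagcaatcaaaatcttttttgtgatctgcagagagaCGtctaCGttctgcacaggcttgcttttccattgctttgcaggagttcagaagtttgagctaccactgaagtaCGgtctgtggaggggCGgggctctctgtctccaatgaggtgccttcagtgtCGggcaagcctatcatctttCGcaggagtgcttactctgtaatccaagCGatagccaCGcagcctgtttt
Gm17762 (chr2:18026999-18027248, + strand): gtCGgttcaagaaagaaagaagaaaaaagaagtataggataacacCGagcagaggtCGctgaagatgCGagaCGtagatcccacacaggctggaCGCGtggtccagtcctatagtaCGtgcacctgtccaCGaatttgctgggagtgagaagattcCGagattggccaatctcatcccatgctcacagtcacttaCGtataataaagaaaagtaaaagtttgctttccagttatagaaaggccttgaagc
Rab11fip3 (chr17:26021861-26022110, - strand): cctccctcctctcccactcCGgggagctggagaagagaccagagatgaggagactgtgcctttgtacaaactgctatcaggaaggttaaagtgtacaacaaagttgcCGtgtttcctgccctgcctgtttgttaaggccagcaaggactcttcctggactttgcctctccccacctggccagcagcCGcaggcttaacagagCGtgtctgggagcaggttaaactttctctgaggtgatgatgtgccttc

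These stretches held 31 CpG in Stag1, 21 in Rbpj, 15 in Ptprs, 11 in Gm17762 and 8 in Nhsl1, against 4 in Rab11fip3. G and C made up 71.2% of the Stag1 stretch and 54% of the Rab11fip3 stretch. Gm17762 was the least GC-rich of the 6 at 45.6%, yet its CpG ratio was 0.856, where the ratio is the number of CpG over that expected from the C and G present. In Nhsl1 the ratio was 0.515 and in Rab11fip3 it was 0.220.

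Members were closer to genes and wider than distal regions found in a single library. The median distance from the region centre to the nearest end of a protein-coding gene was 33.2 kb (lower quartile 17.8 kb), against 50.1 kb for the 13592 distal regions of 1 library. The farthest member lay 2187 kb away. Median width was 1179 bp, against 417 bp for regions of 1 library and 1516.5 bp for the 8664 regions within 1 kb of a gene end that had a peak in all 7 libraries. Width grew step by step with the number of libraries merged, and a wider region covers an annotated feature more readily. Overlaps with start windows and tRNA genes were therefore also taken within 250 bp of each centre. Overlaps with small nuclear, small nucleolar and microRNA genes were not, so their shares compare regions of unlike width.

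Members were spread over all 19 chromosomes, from 69 on chromosome 19 to 275 on chromosome 2. The share of distal regions that were members ran from 5.30% on chromosome 3 to 9.50% on chromosome 11. Neighbouring members were a median of 243 kb apart, 124 of 3264 neighbouring pairs were within 5 kb of each other, and 19.7% of pairs were over 1 Mb apart. Far fewer distal than gene-end regions reached all 7 libraries. Of 12951 gene-end regions 66.9% did, whereas distal regions piled up at 1 library (29.5%) and 2 libraries (31.2%), fell to 2.85% at 6 and came back to 7.12% at 7.

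**Figure D1:**
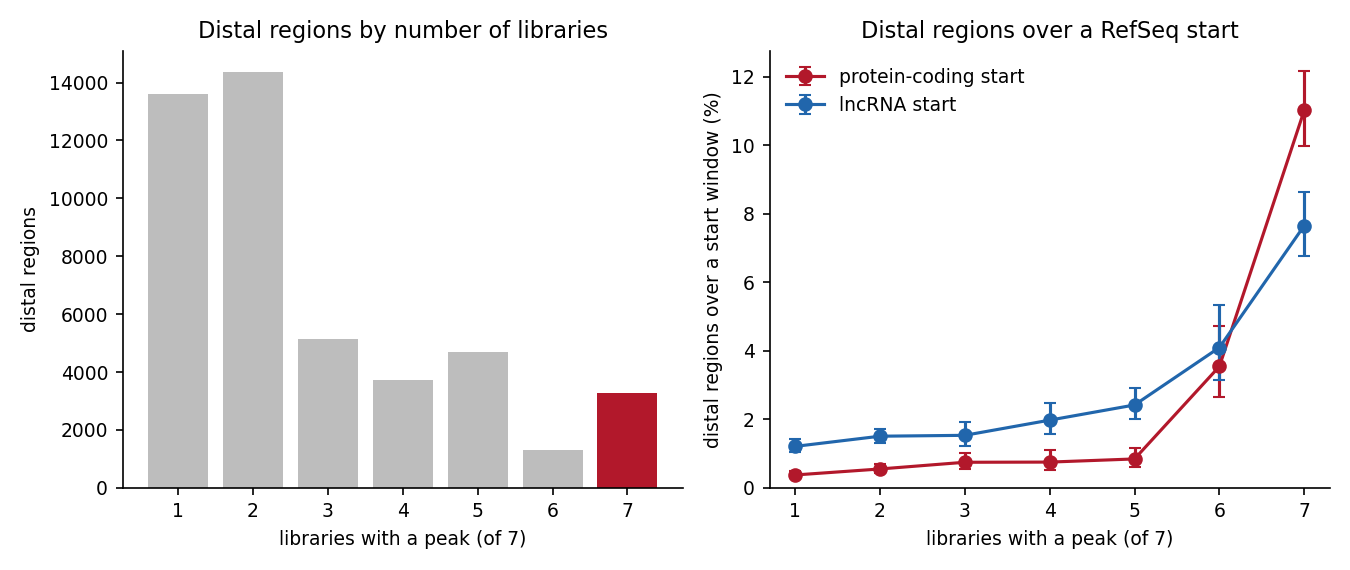
The left panel plots the number of distal regions against the number of libraries, of 7, that had a peak in them, with the 3283 members in red. The right panel plots the percent of those regions that covered a RefSeq start window of a protein-coding gene (red) or an lncRNA (blue) on the 18 autosomes of the start table, with Wilson 95% intervals as bars. Both shares were highest at 7 libraries, at 11.03% and 7.66%.

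By position, members fell into 4 classes. A RefSeq start window of a protein-coding gene, that is 250 bases before to 50 after a start, lay under 347 members (10.6%), and an lncRNA start without a coding one lay under 210 (6.40%). A further 1431 (43.6%) lay inside a protein-coding gene with no start window, and 1295 (39.4%) lay between protein-coding genes with none. The 136 members on chromosome 18 count as having no start, since that chromosome is not in the start table. In all, 1826 members (55.6%) were centred inside a protein-coding gene, against 51.0% of distal regions of 1 library. The difference was 4.58 percentage points (95% interval 2.68 to 6.47), with the same sign on 15 of 19 chromosomes. Against regions of 6 libraries (52.3%) it was 3.30 points (interval 0.122 to 6.49). Distal coding starts are internal to genes, and they lay under 347 members but only 49 of 13059 regions of 1 library. The gene overlap is therefore not separate from the start windows, and a difference among regions without a start was not tested.

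Of the annotated features compared, starts showed the widest difference between members and other distal regions. On the 18 autosomes in the start table, 557 of 3147 members (17.7%, Wilson interval 16.4 to 19.1) covered a start window. The share was 1.58% for distal regions of 1 library and 7.25% for those of 6. The difference between 7 libraries and 1 was 16.1 points (interval 14.8 to 17.5), with the members higher on 18 of 18 chromosomes. Within 250 bp of the centre the shares were 13.5% and 1.56%, so the difference remained with width held equal. With 20000 peaks per list in place of 38000 the member share was 27.7%. Intervals here cover the counting of regions only, and no p-value was computed, since regions are not replicates.

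Seen from the starts, 9001 start windows had a centre over 10 kb from every end of a protein-coding gene. Merged regions with a peak in all 7 libraries covered 400 of the 1415 coding ones (28.3%), which are internal or alternative starts of long genes. They also covered 283 of the 7586 lncRNA ones (3.73%). Over all start windows of these chromosomes, gene ends included, the share was 36.6%. The 683 windows belonged to 549 regions and to 580 genes, of which 330 were protein-coding and 250 lncRNAs.

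CpG content was highest in windows of 6 and 7 libraries. The median CpG ratio was 0.604 in the 683 member windows (quartiles 0.373 and 0.827), 0.397 in windows of 6 libraries, 0.289 in windows of 1 library and 0.202 in the 7260 distal windows with no peak. A ratio of 0.6 or more was found in 50.5% of member windows and in 3.65% of windows with no peak, a difference of 46.9 points (interval 43.1 to 50.6). Coding and lncRNA starts both showed it. Coding member windows reached 62.3% against 5.45% without a peak, and lncRNA member windows reached 33.9% against 3.45%. Gene-end start windows open in all 7 libraries were higher still, with a median ratio of 0.812 and 82.3% at 0.6 or more.

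**Figure D2:**
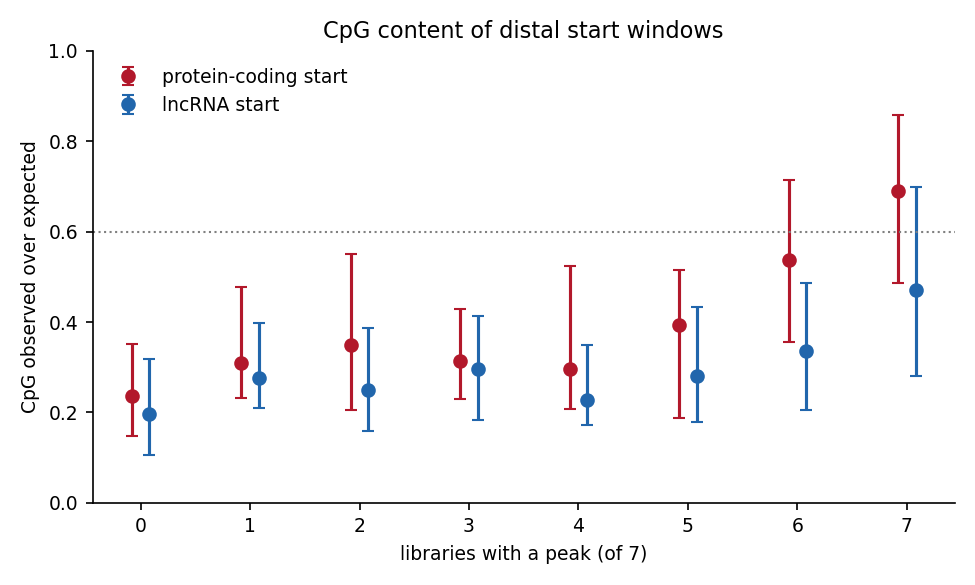
The CpG ratio of distal start windows of 300 bases is plotted for protein-coding starts (red) and lncRNA starts (blue). The horizontal axis is the number of libraries with a peak in the merged region that covers the window. Points are medians, bars run from the lower to the upper quartile, and the dotted line marks a ratio of 0.6. Medians at 7 libraries were 0.691 and 0.471, against 0.237 and 0.198 with no peak.

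Short motifs were searched in the same windows, which differed in gene type and base composition. Member windows were 400 coding and 283 lncRNA starts, and windows with no peak were 716 coding and 6544 lncRNA starts. Motif shares were not split by type. G and C made up a median of 59.3% of member windows and 46.3% of windows with no peak. On either strand, the GC-box bound by SP factors (GGGGCGGGG) was in 20.1% of member windows, 1.46% of distal windows with no peak and 11.6% of all start windows of these chromosomes. The AP-2 motif GCCNNNGGC was in 25.6%, 6.27% and 16.7%, and the ETS motif CCGGAAGT in 3.66%, 0.950% and 3.95%. Several motifs ran the other way, some of them rich in A and T. The RUNX motif TGTGGT was in 14.1% of member windows and 21.4% of windows with no peak. The GATA motif AGATAA was in 6.59% of member windows and 16.6% of windows with no peak, the homeobox motif TAATTA in 2.78% and 8.15%, and the SOX motif ACAATGG in 2.20% and 5.73%. The CTCF core motif was in 3.37% of member windows, 1.94% of windows with no peak and 2.47% of all start windows. In windows of 1 to 6 libraries it was in 3.78%, so members did not stand above these (difference -0.41 points, interval -2.14 to 1.499). A looser form with fewer fixed letters was in 13.5% of member windows, 9.17% of windows of 1 to 6 libraries, 4.48% of windows with no peak and 8.73% of all start windows. The AP-1 motif TGANTCA was lower in member windows, at 41 of 683, against 10.4% of windows with no peak and 7.84% of all start windows. A GC box can overlap a CpG, so these counts and the CpG ratio are not separate measures. The parts of base composition and of gene type in them were not tested. A match is a string of letters, not a bound site, and these windows stand for member starts only, not for the members without one.

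Members ranked high within each list, though below gene-end regions. The signal of a peak, as its caller deposited it, was ranked as a percentile among the 38000 peaks of its own library, since signals were not normalized between libraries. Median percentiles of members ran from 60.3 in incisor and 61.1 in Sox2-positive replicate 2 to 67.2 in both molars. Gene-end regions open in all 7 libraries had medians of 81.8 to 83.2, and the other distal regions 32.6 to 35.3. Members took 8.87% to 9.46% of the peaks of each list. Between 9.41% and 12.3% of members ranked above the 90th percentile of a library and 2.22% to 5.45% ranked below the 10th, so weak peaks were among them everywhere.

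**Figure D3:**
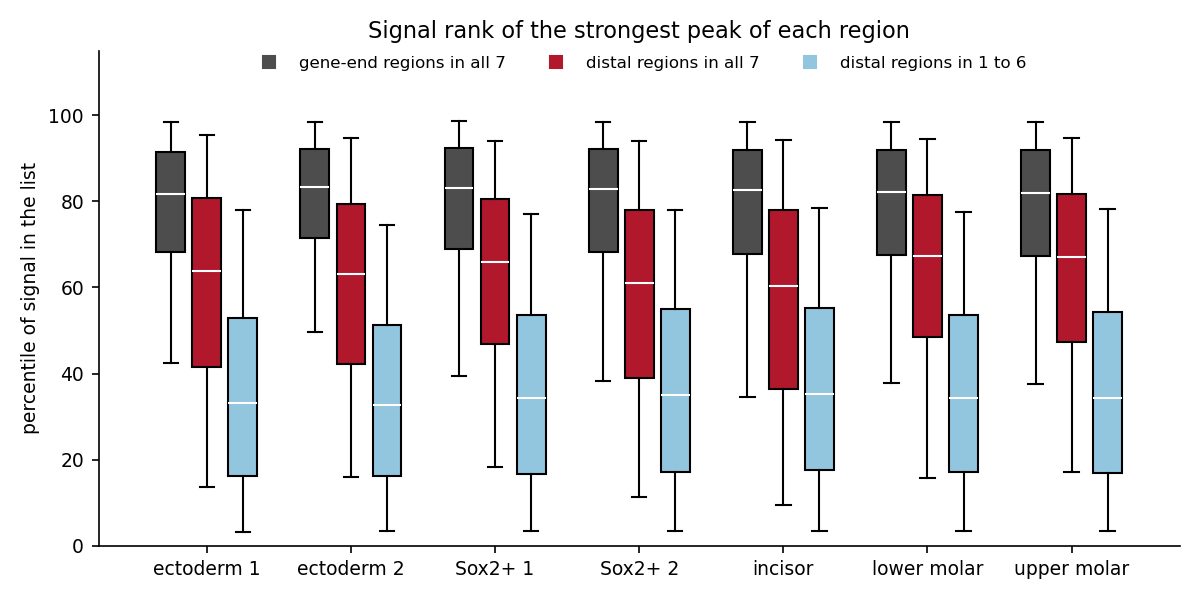
Percentile of peak signal within the library's list, for the strongest peak of each region, in the 7 libraries. Boxes run from the lower to the upper quartile with the median in white, and whiskers from the 5th to the 95th percentile, for gene-end regions open in all 7 libraries (grey), distal members (red) and distal regions open in 1 to 6 libraries (blue). Member medians lie at 60.3 to 67.2, between the other sets in every library.

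The 4 classes differed in rank. Members over a coding start had median percentiles of 75.2 to 79.5 across libraries, those over an lncRNA start 68.9 to 74.8, those inside a coding gene without a start 57.7 to 66.5, and those between genes 55.2 to 64.5. The lowest percentile over the 7 libraries, a measure of the weakest library of a region, had a median of 62.5 at coding starts and 33.7 between genes.

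The strongest members, by their weakest library, were led by a ribosomal RNA copy. The region over the pseudogene Rn18s-rs5 and the noncoding RNA AY036118 (chr17:39842942-39848887) had signals of 55992 and 57779 in the ectoderm replicates, 49115 and 79769 in the sorted cells, and 64884, 45620 and 48709 in whole incisor, the lower and the upper molar. It was the top peak of all 7 lists. Ribosomal RNA genes exist in many copies, and the part of reads from other copies in these values was not tested.

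Next came a 6125 bp region inside Gse1, a gene for a coregulator of transcription, which also covers the start of 1700016A09Rik and Mir7687 (chr8:120534549-120540673). Its signals were 9183 and 9914 in the ectoderm replicates, 6611 and 9614 in the sorted cells, and 12988, 11492 and 13132 in whole incisor, the lower and the upper molar. The lowest rank was the 99.86th percentile, in ectoderm replicate 1. Its 7 summits spanned 3514 bp, so libraries had their highest point in different parts of this broad region.

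At the internal start of Ptprs (chr17:56460710-56463859) the signals were 7900 and 7924 in the ectoderm replicates, 8239 and 8192 in the sorted cells, and 9875, 8178 and 7698 in whole incisor, the lower and the upper molar, and all ranked at the 99.6th percentile or above. The lncRNA Gm6410 (chr8:4677072-4679603) had 7693 and 8709 in the ectoderm replicates, 8097 and 7189 in the sorted cells, and 7509, 7671 and 7693 in whole incisor, the lower and the upper molar. No library ranked below the 99.5th percentile there.

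Rbpj (chr5:53588412-53592008) had signals of 7174 and 6589 in the ectoderm replicates, 4083 and 4997 in the sorted cells, and 6837, 6200 and 6009 in whole incisor, the lower and the upper molar. The sorted cells had the lowest raw signals there, but all 7 libraries ranked at the 98.7th percentile or above. Rarg, a retinoic acid receptor (chr15:102245426-102248281), had 6776 and 5992 in the ectoderm replicates, 3959 and 6519 in the sorted cells, and 8761, 7663 and 7151 in whole incisor, the lower and the upper molar. The replicates of the sorted cells, at the 98.6th and 99.7th percentiles, differed there by more than the ectoderm replicates did. The strong members without a start included one inside Cic, a transcriptional repressor (signals 4955 to 9220), one inside Plec, which encodes the cytoskeletal linker plectin (8839 bp wide, 7338 to 18809), and one 14.96 kb from Zfp395 (4203 to 6214).

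**Figure D4:**
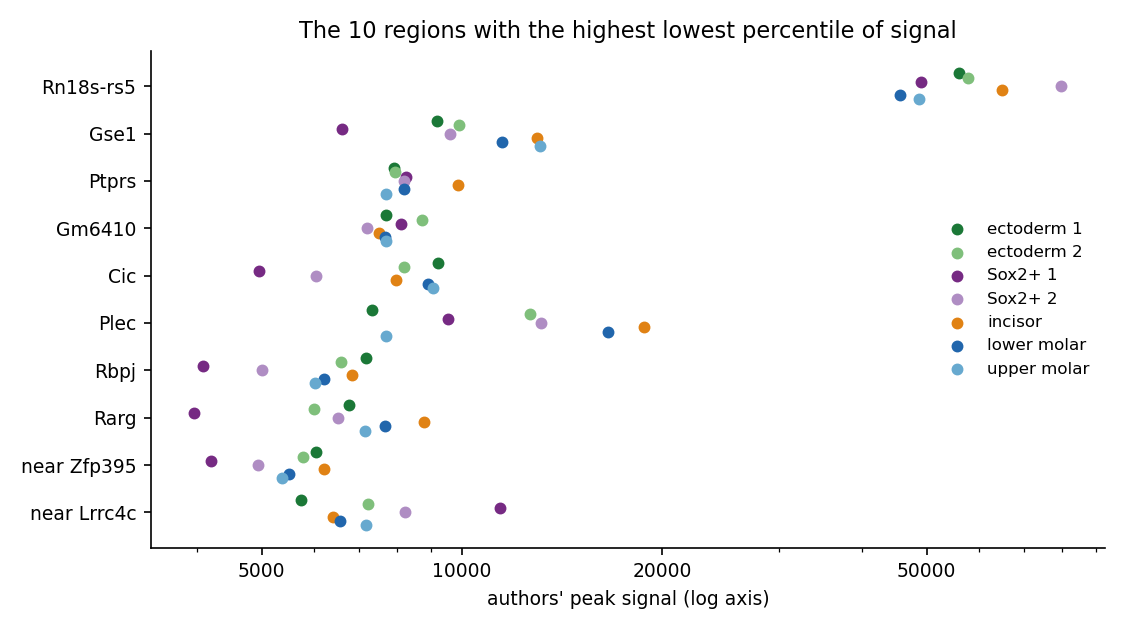
Deposited peak signal, on a log axis, of the 10 members with the highest lowest percentile over the 7 lists, 1 row per region and 1 point per library. Rn18s-rs5 stands apart at 45620 to 79769, and signals are not normalized between libraries.

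Some members lay in gene deserts. The farthest from any protein-coding gene end (chr18:28077423-28078861, inside the lncRNA Gm33860, 2187 kb from Pik3c3) ranked at percentiles 63.4 and 62.00 in the ectoderm replicates, 52.7 and 27.2 in the sorted cells, and 10.9, 75.8 and 83.4 in whole incisor, the lower and the upper molar. The molars were highest and the incisor lowest. Another 3 lay within a few kilobases of each other on chromosome 2, over 1 Mb from Lrrc4c. Of these, chr2:98666193-98667378 ranked at the 97.9th percentile or above in every library, lowest in ectoderm replicate 1. The others ranked highest in Sox2-positive replicate 1, at the 99.9th and 95.7th percentiles, and lowest in ectoderm replicate 1. Whether reads from repeats elsewhere in the genome add to these 3 was not tested. The fifth, 948 kb from Zeb2 (chr2:46064754-46065869), ranked from the 41.4th percentile in incisor to the 76.3rd in Sox2-positive replicate 1.

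Summits, the highest point of each peak, spanned at most 100 bp in 56.3% of members. The rule merged overlapping peaks, which favours near summits, so the spans are a description. The 7 summits spanned a median of 82 bp (quartiles 41 and 237 bp), against 69 bp in gene-end regions open in all 7 libraries. They lay within 50 bp in 31.2% of members and spanned over 500 bp in 394 members. A base common to peaks of all 7 libraries existed in 3223 members (98.2%), and 2746 (83.6%) had a single peak in every library. In those the median span was 75 bp.

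Pairs of libraries differed in this respect. The median distance between summits was 8 bp between the molars, 9 bp between incisor and lower molar, and 11 bp between the ectoderm replicates. It was 22 bp between the Sox2-positive replicates, while replicate 2 of these cells was only 10 bp from whole incisor. The farthest pair was ectoderm replicate 2 with Sox2-positive replicate 1, at 34 bp. Leaving Sox2-positive replicate 1 out took the median span from 82 to 70 bp over the 6 remaining libraries.

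**Figure D5:**
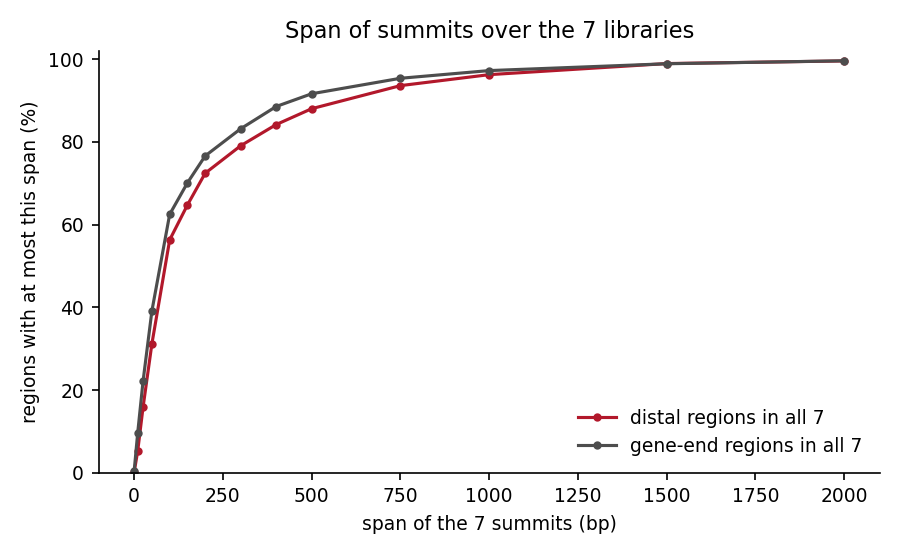
Cumulative percent of regions whose 7 summits span at most a given number of base pairs, for the 3283 distal members (red) and the 8664 gene-end regions open in all 7 libraries (grey). At 50 bp the curves stand at 31.2% and 39.2%, and both pass 95% by 1000 bp.

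In 5 high-ranking members, the summits spanned the fewest base pairs. At the internal Stag1 start (chr9:100642090-100644933) all 7 summits fell on the same base, with percentiles of 96.8 and 96.9 in the ectoderm replicates, 99.2 and 99.5 in the sorted cells, and 99.4, 99.00 and 99.1 in whole incisor, the lower and the upper molar. Both ectoderm libraries ranked just below every postnatal one, all within the top of their lists. The other 4 were the Gm17762 start (chr2:18025814-18029137), the lncRNA C030034I22Rik 20.5 kb from Akain1, a region 19.5 kb from Ndfip2, which encodes an adaptor of ubiquitin ligases, and the Nhsl1 start (chr10:18406662-18408505). Gm17762 ranked from 96.6 in incisor to 99.7 in ectoderm replicate 1, and Nhsl1 from 66.1 in lower molar to 85.6 in ectoderm replicate 2.

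A peak in every library did not mean equal strength. The percentiles of a member ranged over a median of 33.7 points across the 7 libraries, against 12.8 points for gene-end regions. They stayed within 10 points in 8.16% of members against 40.1% of gene-end regions. Gene-end regions ranked nearer the upper limit of the scale (medians 81.8 to 83.2, against 60.3 to 67.2 for members), and ranges were not compared at equal rank. Both ectoderm libraries ranked above all 5 postnatal ones in 752 members (22.9%), close to the 21.8% over all regions open in 7 libraries. All postnatal libraries ranked above both ectoderm ones in 738 (22.5%), against 20.8%. Members over coding starts leaned to the ectoderm, with 30.3% above and 15.3% below, while those inside genes without a start had 21.7% and 24.7%. These orders use the values that chose the regions and are descriptions.

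The members with the widest gaps between ectoderm and postnatal libraries were singled out after their values were seen. A region 143 kb from Sox2 (chr3:34795112-34796370) had percentiles of 89.6 and 84.7 in the ectoderm replicates, 11.1 and 11.7 in the sorted cells, and 9.97, 31.8 and 25.6 in whole incisor, the lower and the upper molar. The cells sorted for Sox2 were about as low as the whole incisor. Near Bmp7, a signalling ligand of the BMP family (chr2:172830955-172834185), percentiles were 99.6 and 97.7 in the ectoderm replicates, 4.01 and 16.1 in the sorted cells, and 56.04, 3.01 and 47.4 in whole incisor, the lower and the upper molar. The summits spanned 1916 bp, so the peaks did not mark the same point. The internal start of Dctn1, a subunit of the dynein activator dynactin, had 88.0 and 74.3 in ectoderm and 1.58 to 35.8 in all the others, with summits within 89 bp.

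In the opposite direction, a site within Trpm3, a cation channel gene (chr19:22915843-22917825), had percentiles of 15.1 and 15.5 in the ectoderm replicates, 91.5 and 96.3 in the sorted cells, and 98.5, 97.4 and 93.6 in whole incisor, the lower and the upper molar. Its summits spanned 1333 bp. Inside Plekha2 (chr8:25074238-25075331) the percentiles were 24.4 and 8.94 in ectoderm and 80.4 to 95.5 in the postnatal libraries. Inside Phc2, a Polycomb gene, they were 13.1 and 10.3 against 74.0 to 90.8. Members in both directions were picked for this gap, so the distance between their groups describes the choice and is no separate result.

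Tooth genes had members nearby at shares close to or above that of all genes. Of 20 genes fixed as a dental epithelium list, 8 (40%) had a member inside or within 100 kb of an end, and of 20 dental mesenchyme genes 6 (30%) did. Over all 20665 protein-coding genes the share was 29%. Of 7 enamel genes it was 3 (Enam, Mmp20 and Sp6), of 15 genes of other cells 5, of 16 genes in clusters 3, and of 6 genes for genome architecture 4 (Ctcf, Smc3, Stag1 and Wapl). Nearness is not assignment, and no test of these shares was made.

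Among epithelial genes, Edar, the receptor for ectodysplasin, had a member inside its body 23.5 kb from an end (chr10:58651180-58653267). Its percentiles were 73.2 and 86.9 in the ectoderm replicates, 96.2 and 90.98 in the sorted cells, and 73.3, 96.7 and 98.1 in whole incisor, the lower and the upper molar. The molars and the sorted cells were high, and whole incisor lay with the lower ectoderm replicate. Lef1, a transcription factor of the Wnt pathway, had one 46.0 kb inside the gene (chr3:131177431-131179366), with 14.5 and 18.4 in the ectoderm replicates, 59.5 and 71.9 in the sorted cells, and 44.6, 83.1 and 83.7 in whole incisor, the lower and the upper molar. Both ectoderm libraries were below every postnatal one, and the molars were highest, but the summits spanned 834 bp.

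Foxi3, a forkhead factor of early ectoderm, had a member 52.2 kb away (chr6:71012561-71013974) with 81.1 and 84.5 in the ectoderm replicates, 70.9 and 71.3 in the sorted cells, and 34.99, 73.9 and 76.3 in whole incisor, the lower and the upper molar. Ectoderm was highest, incisor was far below the rest and the 7 summits spanned 80 bp. Wnt10a, a secreted Wnt ligand, had one 12.8 kb away over the tRNA gene n-TGgcc3, which ranked from 36.9 in lower molar to 70.7 in Sox2-positive replicate 2. The ligand Fgf8 had its nearest member 94.1 kb away inside Armh3, where percentiles were 73.7 and 86.5 in the ectoderm replicates, 57.5 and 30.4 in the sorted cells, and 8.56, 87.1 and 88.5 in whole incisor, the lower and the upper molar. The ectoderm and the molars ranked above the 3 libraries from the incisor, which themselves ran from 8.56 to 57.5. The 7 summits of this member spanned 842 bp. Tbx1, a T-box factor, had a member 96.2 kb away that was strong throughout (percentiles 81.6 to 93.8), and Bmi1, a Polycomb gene, had one 80.4 kb away (40.9 to 75.3). Krt14, a basal keratin, had one 74.7 kb away that ran from 1.28 in Sox2-positive replicate 2 to 65.2 in upper molar.

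Of the mesenchymal genes, Sp7, the osteoblast and odontoblast factor osterix, had a member 10.3 kb away (chr15:102376335-102378397). Its percentiles were 49.8 and 59.6 in the ectoderm replicates, 94.7 and 96.97 in the sorted cells, and 97.7, 78.8 and 78.5 in whole incisor, the lower and the upper molar. All postnatal libraries ranked above the ectoderm, with incisor and the cells sorted from it highest. The summits spanned 977 bp, so the ranked peaks did not mark the same point. The homeobox genes Dlx1 and Dlx2 shared a member 47.8 kb from Dlx2 (percentiles 56.4 to 82.98). Msx2, another homeobox gene, had one 61.1 kb away that was lowest in ectoderm (27.0 and 12.3, against 52.2 to 74.9). Prrx2 had one 60.4 kb away (66.2 to 80.9), and Prrx1 one 94.5 kb away that was weak in every library (2.54 to 31.8).

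Few genes held many members. Of the protein-coding genes, 1287 held at least 1 member inside their body, 935 of them exactly 1, and 20 held 5 or more. Gse1 held 9 members among 59 distal regions over 353 kb. Aopep, a peptidase gene, held 7 among 37 over 361 kb, and Nav2, a neuron navigator, 7 among 65 over 651 kb. Rere, Sh3pxd2a, St3gal3, Tex14 and Vgll4 held 6 each, among 26, 28, 19, 9 and 12 distal regions. Of all distal regions 7.12% were members. Per 100 kb, Vgll4, a cofactor of TEAD proteins, was the densest of these at 5.49 and Nav2 the sparsest at 1.08.

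The 6 members of Vgll4 did not share a pattern. There the member at position 114873556 of chromosome 6 ranked at 75.3 and 76.3 in ectoderm and 94.1 to 97.4 in the postnatal libraries. Another, starting at 114899228, ranked at 97.3 and 93.8 in ectoderm and 52.3 to 72.8 in the postnatal ones. Farther along, the member at 114916368 ranked at 40.7 and 45.6 in ectoderm and 91.1 to 96.9 in the others. Ectoderm thus ranked below every postnatal library at the members starting at 114873556 and 114916368 and above them all at the one starting at 114899228. Of the other 3 members, ectoderm was above all postnatal libraries at those starting at 114882680 (75.9 and 64.2, against 5.20 to 57.03) and 114888701 (89.8 and 84.6, against 56.9 to 80.8), and below them at the one starting at 114921120 (68.7 and 71.6, against 73.4 to 82.98). The 9 in Gse1 likewise ran from a region that ranked at the 1.70th percentile in its weakest library to the strong one described above.

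The 6 members in Tex14 sat on a cluster of genes that RefSeq lists as small nuclear RNAs. They covered Rnu1a1, a copy of the U1 gene of the spliceosome, Gm22068, and Rnu3b1, Rnu3b3, Rnu3b4 and Rnu3b2, copies of the U3 gene that acts in ribosomal RNA processing, within 48.6 kb. At Rnu3b1 the percentiles were 97.3 and 97.5 in the ectoderm replicates, 84.6 and 96.99 in the sorted cells, and 82.5, 91.8 and 85.4 in whole incisor, the lower and the upper molar. At Rnu3b2 they were 86.3 and 91.95 in the ectoderm replicates, 52.7 and 76.8 in the sorted cells, and 54.7, 64.7 and 65.7 in whole incisor, the lower and the upper molar. Ectoderm was highest at both, although Sox2-positive replicate 2 came within 1 point of it at Rnu3b1. The U3 copies are nearly identical, and how reads were divided between them is not given in the sources used here.

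Genes for tRNAs and small nuclear RNAs were more frequent among members than among distal regions of 1 library, though rare in number. This feature was looked at after the data were seen. A tRNA gene lay under 19 members (0.579%), against 0.118% of distal regions of 1 library, a difference of 0.461 points (interval 0.241 to 0.788), with members higher on 11 of 19 chromosomes. Against regions of 6 libraries the difference was 0.351 points and its interval included 0 (-0.136 to 0.708). The share was 0.366% within 250 bp of the centre, 0.977% with a distance limit of 5 kb and 0.0887% with one of 50 kb. Those 19 covered 35 of the 206 tRNA genes that are distal by the same distance (17.0%). A small nuclear RNA gene lay under 13 members (0.396%), 6 of them those in Tex14, against 0.00736% of regions of 1 library. Members were higher on 6 of 19 chromosomes, where a chromosome with none in either set counts as not higher. Against regions of 6 libraries the interval again included 0 (difference 0.320, -0.0693 to 0.607). A small nucleolar RNA gene lay under 3 members (0.0914%), against 0.0221% of regions of 1 library, and that interval also included 0 (-0.00464 to 0.247). The strongest tRNA member by its weakest library, on chromosome 3 with 4 tRNA genes (chr3:19627682-19629471), had percentiles of 98.8 and 98.96 in the ectoderm replicates, 98.2 and 99.2 in the sorted cells, and 95.2, 94.97 and 95.9 in whole incisor, the lower and the upper molar. The 7 summits spanned 10 bp.

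A microRNA gene lay under 11 members (0.335%), against 0.0221% of distal regions of 1 library and 0.152% of those of 6. The interval of the difference from regions of 6 libraries included 0 (-0.243 to 0.469). These members covered 12 of the 579 microRNA genes that are distal by the same distance (2.07%). Sequences of the 5p arm are shown for 3 of them, from RefSeq, with bases 2 to 8, the seed that pairs with targets, in capitals, because 2 share a seed and the third is an epithelial microRNA.
miR-205-5p (chr1:193507503-193507524, - strand): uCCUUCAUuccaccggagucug
let-7c-5p, from Mirlet7c-2 (chr15:85706616-85706637, + strand): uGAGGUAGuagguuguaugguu
let-7b-5p (chr15:85707325-85707346, + strand): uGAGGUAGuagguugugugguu

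Mir205, known from stratified epithelia, lay in a run of 5 members within 14.0 kb, noted after the values were seen, that also covered the start of its host transcript Mir205hg. The member over Mir205 itself (chr1:193507070-193509573) had percentiles of 86.4 and 89.3 in the ectoderm replicates, 84.01 and 71.5 in the sorted cells, and 78.4, 92.7 and 94.5 in whole incisor, the lower and the upper molar. Sox2-positive replicate 2 and incisor were lowest, the molars highest, and its summits spanned 33 bp. The 2 let-7 genes, with the same seed GAGGUAG, shared a 4638 bp member near Ppara (chr15:85706530-85711167) with percentiles of 6.69 and 43.5 in the ectoderm replicates, 88.6 and 82.3 in the sorted cells, and 63.8, 63.4 and 83.02 in whole incisor, the lower and the upper molar. Ectoderm was below every postnatal library at this member, whose summits spanned 924 bp.

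Values next to the limits of the rule show how members shade into other regions. The 3 members nearest the 10 kb limit, beside Wdr38, Slc38a2 and Inf2, ranked from 10.7 to 73.9, from 75.2 to 94.6 and from 17.3 to 79.3 over the 7 libraries. Regions of all 7 libraries just within the limit, beside Relb, Bnip3 and Krt80, ranked from 12.3 to 60.0, from 43.0 to 87.5 and from 29.8 to 57.8. At the rank limit of 38000 peaks the −log10 p was 2.94 in Sox2-positive replicate 2, where 99.1% of the list was used, and 4.79 in ectoderm replicate 1, where 47.0% was. A further 1317 distal regions had a peak in 6 of the 7 libraries. Incisor was the one missing in 395, Sox2-positive replicate 2 in 268 and the lower molar in 47. In 788 of the 1317 (59.8%) the missing library had a weaker peak in its full list, but in Sox2-positive replicate 2 this held for 1 of 268, since almost its entire list was already in use.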

How the data were processed

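The members, the gene lists and the motifs were chosen with earlier results of these data known. The deposited files are narrowPeak lists, 1 per library, so the authors called peaks per library; the submitters' processing notes name FastQC, Trimmomatic, Bowtie2, deepTools, Genrich and build mm10, and their roles, versions and settings are not given in the sources used here. The deposited signal of a peak and the deposited −log10 p were used to choose and rank peaks within a list. The deposited score was not used, and the summit is the authors' offset from the peak start. No read counts are in the lists, so depth is unknown and no count model was possible.

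Peaks on chromosomes 1 to 19 were ranked by −log10 p, ties by signal, and 38000 per library were merged where they shared 1 bp (Python 3.11.15, pandas 2.3.3, numpy 2.4.6). Genes, start windows and microRNAs came from RefSeq tables of GRCm38.p6. The start table has no entries for chromosome 18. No genome was used here, so motifs were searched only in start windows. The region percentile is that of its strongest peak in a library. Wilson and Newcombe 95% intervals cover counting of regions only. Named regions were the 10 with the highest lowest percentile, the 5 farthest from gene ends, the 5 with the narrowest summit span among the high-ranking members, genes with most members (8, through ties), 3 regions on either side of the distance limit, and the member nearest each tooth gene. The computations were tested on simulated peak lists. Alternatives were list length, ranking, distance, overlap and leaving out each library.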

Additional observations from a re-analysis of the deposited data

Results flagged for a closer look

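Chromosome X was outside the comparisons, which used chromosomes 1 to 19. Treated by the same rule, it held 571 distal regions, and 60 of them (10.5%) had a peak in all 7 libraries. Chromosome X is listed here because the comparisons did not use it. On chromosomes 1 to 19 together the share was 7.12%, with a range of 5.30% to 9.50% over single chromosomes. These values come from the rule that chose the regions and are a description, with no test.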

How the results depend on the processing

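The depth of the lists is unknown, and the longest lists reach stronger peaks at the same rank. With 20000 peaks per list there were 1228 members, the median summit span was 68.5 bp, 27.7% covered a start window and the CpG difference was 53.0 points. All deposited peaks gave 4951, 104 bp, 14.3% and 42.7 points. Ranking by signal gave a span of 106 bp. A limit of 5 kb gave a start share of 19.5%. A limit of 50 kb gave 1127 members, 50.9% inside a gene, 87 bp, 16.0% and 36.3 points, and kept 2 of the 10 strongest regions, by the construction of the limit. Within 250 bp of the centre the start share was 13.5%, and a CpG ratio of 0.75 gave 31.8 points. Start and tRNA shares stayed above those of distal regions of 1 library, and the CpG difference stayed positive, under every alternative run. With the limit of 50 kb the tRNA share was 0.0887% (interval 0.0157 to 0.501), against 0.0147% for regions of 1 library. Those tRNA shares rest on very few regions, so that setting says little about tRNA genes. Comparisons of gene overlap, distance, width and summit span with other sets of regions were not repeated under the alternatives. Leaving out each library in turn gave 3332 to 3674 members, 55.0% to 55.7% inside a gene, spans of 70 to 80 bp, start shares of 16.3% to 17.6% and CpG differences of 46.0 to 46.8 points; without the incisor the start share was 16.3%. The cause of each of these shifts was not tested. The start, CpG and tRNA results and their alternatives were chosen after seeing the data. The CTCF motif over all members, with its motif and window alternatives, was not run because no genome was used here. No paired analysis was possible because the results come from no test and only the ectoderm and Sox2-positive groups carry more than 1 replicate number.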
